A study of Mus musculus with 8 samples.

Results

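The genes described here are 40 T cell and intraepithelial lymphocyte genes of the mouse ileum, out of 55487 genes in the deposited table. They were chosen by symbol, as genes of the T cell receptor complex, of cytotoxic granules, of NK receptors and of lymphocyte lineages, and each symbol matched 1 row. The ileum came from irinotecan-treated Gsdme-deficient mice (Gsdme-/-, here Gsdme_KO, 4 libraries named KO4, KO5, KO7 and KO8) and irinotecan-treated wild-type mice (Gsdme+/+, here WT, 4 libraries named WT3, WT5, WT7 and WT8). Irinotecan is a topoisomerase I inhibitor that injures the intestine, and the protein made from Gsdme, gasdermin E, forms membrane pores once a caspase has cut it. Both genotypes were treated, and untreated mice were not analysed here, so each value describes a genotype under the drug. The sources used here do not give strain, age, dose, time or the kind of Gsdme allele. RNA was measured in bulk by poly(A) RNA sequencing, and the labels number 4 mice per genotype.

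T cells recognise antigen through a receptor of variable and constant chains, either alpha and beta (Trac, Trbc1, Trbc2) or gamma and delta (Trgc1, Trdc), which signals through the CD3 and zeta chains. Helper T cells carry CD4 and cytotoxic T cells carry CD8. Intraepithelial lymphocytes lie between the epithelial cells of the villus, carry the integrin chain encoded by Itgae, often CD8 and granzymes, and many of them use a gamma-delta receptor. Other T cells of the ileum lie in the lamina propria and, together with B cells, in Peyer's patches and smaller follicles. In bulk RNA, fewer cells of a type and less RNA per cell cannot be told apart.

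The values are normalized counts, that is reads per gene divided by a size factor of the library, and values are listed in the order KO4, KO5, KO7 and KO8, then WT3, WT5, WT7 and WT8. The libraries held 15617407 to 23437343 reads in genes. Gsdme itself had 113, 187, 634 and 464 in Gsdme_KO, against 3376, 2169, 3164 and 2696 in WT, with all Gsdme_KO libraries below all WT libraries (log2 difference -3.32, two-sided exact permutation p = 0.0286, the smallest that 4 against 4 libraries can give). Lymphoid, follicle, neutrophil and enterocyte genes set KO4 and KO5 apart from the rest, and the labels do not say whether the pieces of ileum held Peyer's patches. The B cell marker Cd79a, a signalling chain of the B cell receptor, had 2029, 1240, 196 and 129 in Gsdme_KO, against 129, 176, 155 and 121 in WT. The mature enterocyte marker Cubn, the ileal receptor for intrinsic factor with its vitamin, had 167, 1002, 10480 and 7408 in Gsdme_KO, against 10658, 6162, 6696 and 3633 in WT. The general epithelial markers Epcam, Krt8, Krt18, Krt19, Krt20, Cdh1 and Vil1 and the ileal markers Fabp6 and Slc10a2 were abundant in each library. Epcam ranged from 34389 to 45984 in Gsdme_KO and from 38894 to 50707 in WT. The 6 ileal markers (Fabp6, Slc10a2, Cubn, Mep1a, Nr1h4 and Fgf15) stood at -1.56, -0.76, 0.41 and 0.19 from their WT mean (log2) in Gsdme_KO. In WT they stood between -0.80 (WT8) and 0.51 (WT3). With all libraries, 1 of the 6 had a positive log2 fold change and 5 a negative one. The 8 follicle and germinal centre markers, with Fdcsp at 0 in every library, stood 3.18 and 2.98 above their WT mean (log2) in KO4 and KO5 and -0.08 and 0.07 in KO7 and KO8, and summed to 3261, 2024, 482 and 482 in Gsdme_KO, against 425 to 519 in WT. The 5 neutrophil markers stood at 3.25, 1.89, -0.07 and 1.11 in Gsdme_KO. In KO8, 4 of the 5 were above all WT libraries, against 14.2% of all 16352 tested genes. The 5 summed to 917, 315, 113 and 210 in Gsdme_KO, against 89.4 to 143 in WT. The 8 macrophage and dendritic cell markers stood at 0.84, 0.43, -0.06 and -0.13 and summed to 3586, 3018, 1976 and 2294 in Gsdme_KO, against 2074 to 2821 in WT. The part of all these markers in the T cell results was not tested, and most fold changes are also given for KO7 and KO8 alone against the 4 WT libraries.

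T cell genes had higher means in Gsdme_KO than in WT, and most of that difference lay in KO4 and KO5. Of the 40 genes, 38 had a higher mean log2 value in Gsdme_KO, and 38 passed the filter of a mean of at least 10 normalized counts, Eomes and Foxp3 being below it. Among the 38 tested, 36 had a positive log2 fold change (94.7%), against 50.6% of all 16352 tested genes. The median of the 38 was 0.98, against 0.00 over all tested genes. Cd27 and Ctla4, with WT means of 5.99 and 5.22, passed the filter only through KO4 and KO5. The filter therefore favoured a positive sign for these genes. Every fold change is Gsdme_KO over WT on the scale log2(normalized count + 1), which understates the change of low genes. None of the 38 passed the test across all genes (limma, Benjamini-Hochberg adjusted p under 0.05), where 0.00612% of genes were called higher and 0% lower. The targeted gene Gsdme, lower in every Gsdme_KO library, was thus not called by this test either. A gene that was not called is therefore not shown to be unchanged. The limma adjusted p was 0.849 for 31 of the 38 and 0.858 to 0.994 for the other 7. At an unadjusted p under 0.05, limma listed 17 higher and 1 lower, with 2.61% and 1.77% of all tested genes as background. On recovered whole reads, edgeR also called 0 of the 38 after adjustment and DESeq2 0 of 34, since it gave no adjusted p for Ctla4, Gzmk, Prf1 and Tbx21, where edgeR called 0.00612% of all tested genes higher and 0% lower and DESeq2 0.0489% and 0.00612%. Each listed 25 higher and 1 lower at an unadjusted p under 0.05. The background for those lists was 4.43% higher and 1.58% lower by edgeR and 5.12% higher and 1.82% lower by DESeq2. Genes of a cell type vary together across bulk samples, so these counts do not add up as separate pieces of evidence.

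**Figure D1:**
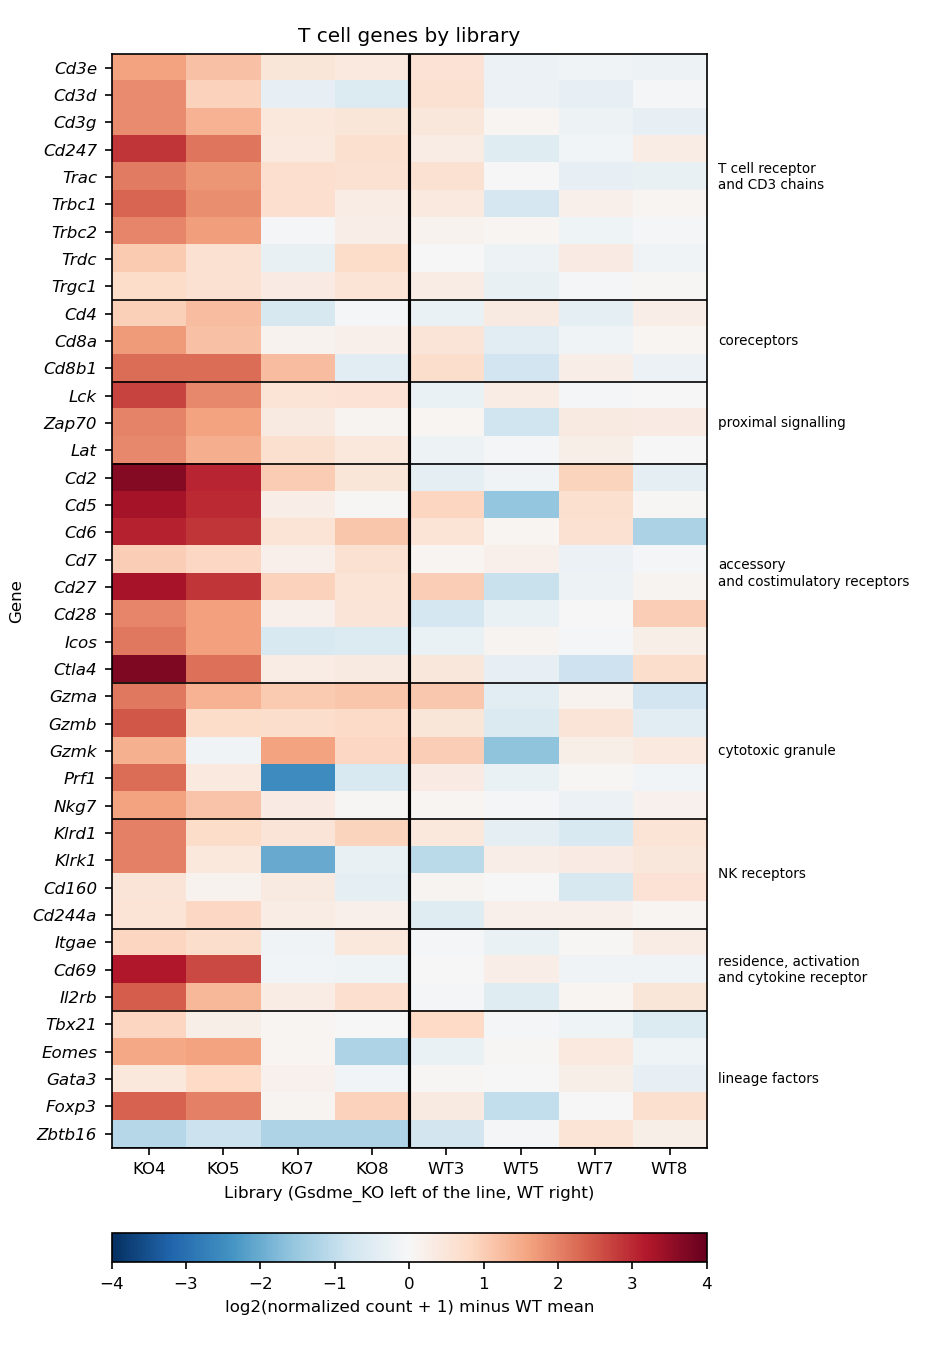
Heat map of the 40 genes (rows, grouped by role) in the 4 Gsdme_KO and 4 WT libraries (columns), with colour for log2(normalized count + 1) minus the WT mean of the gene. KO4 and KO5 are the reddest columns, 32 of the 40 genes have both of them above the other 6 libraries, and Zbtb16 is blue in all 4 Gsdme_KO libraries.

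The genes were highest in KO4 for 32 of 40 and in KO5 for 5 (Cd4, Cd8b1, Cd244a, Eomes and Gata3). The other 3 genes (Gzmk, Cd160 and Zbtb16) peaked elsewhere. KO4 exceeded all 4 WT libraries in 36 of the 38 tested genes, where 30.5% of all tested genes did, and KO5 in 33, where 24.3% did. KO7 exceeded all 4 WT libraries in 12 of the 38, against 18.3% of all tested genes, and KO8 in 15, against 14.2%. Both KO4 and KO5 lay above the other 6 libraries for 30 of the 38, against 14.1% of all tested genes. The B cell markers moved in the same libraries. All 7 of that list (Ms4a1, Cd79a, Cd79b, Cr2, Fcer2a, Pax5 and Cd22) were above all WT libraries in KO4 and in KO5, 3 in KO7 and 1 in KO8. The shares of all tested genes were 30.5%, 24.3%, 18.3% and 14.2% in these libraries. The summed levels of the 7 markers were 8588 and 4876 in KO4 and KO5 and 296 and 231 in KO7 and KO8, against 217 to 324 in WT. Ms4a1 had 2.44 normalized counts in KO7 and 8.21 in KO8, and Cr2 had 4.87 and 3.65. The part of B cell RNA in the T cell values of KO4 and KO5 was not tested.

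KO4 and KO5 were singled out from levels in these same data, and both lay above the other 6 libraries for 32 of the 40 genes. Leaving them out therefore lowers those fold changes by construction, and the fit is no independent estimate. Without KO4 and KO5, 35 of the T cell genes passed the filter and 28 had a positive log2 fold change, against 52% of all 16212 tested genes. The median was 0.36 over the T cell genes and 0.01 over all tested genes. At an unadjusted p under 0.05, 2 (Lck and Gzma) were listed higher, with a background of 1.03%, and 1 (Zbtb16) lower, with a background of 1.71%. In this fit limma called 0 of the 35 after adjustment, with 0% of all genes called higher and 0.00617% lower. There, Gzmk (1.23), Gzma (1.09) and Cd6 (0.84) had the highest log2 fold changes of T cell genes, and Zbtb16 (-1.22) and Klrk1 (-1.15) the lowest, named after their values were seen. The genotypes did not overlap in 6 genes with all Gsdme_KO libraries higher (Cd247, Trac, Trgc1, Lck, Lat and Gzmb), and 1.31% of all tested genes showed that. In 1 gene, Zbtb16, all Gsdme_KO libraries were lower, and 1.19% of all tested genes showed that.

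**Figure D2:**
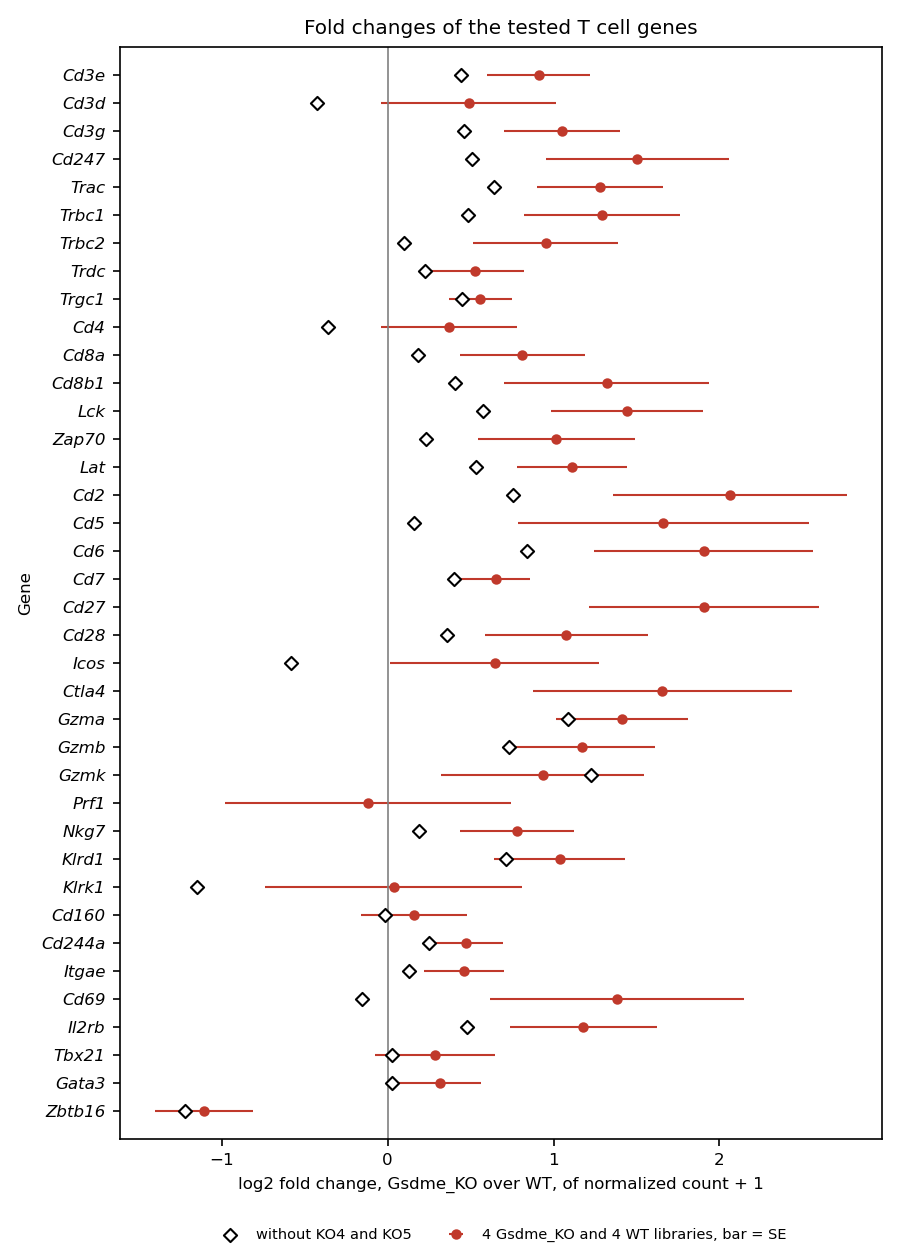
Log2 fold change of Gsdme_KO over WT, on the scale of normalized count + 1, for the 38 tested genes in order of role, where red points with bars are the fold change and its SE with all 8 libraries, and open diamonds the fold change without KO4 and KO5 (absent where the gene then missed the filter). The median of the points is 0.98 and that of the diamonds 0.36, and 7 genes (Cd3d, Cd4, Icos, Klrk1, Cd160, Cd69 and Zbtb16) have diamonds below 0.

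All 9 chains of the T cell receptor complex had a positive log2 fold change, with a median of 0.95. Trac (ENSMUSG00000076928, chromosome 14, 54220521 to 54224206, plus strand) encodes the constant region of the alpha chain. It had 184, 147, 68.2 and 66.6 in Gsdme_KO, against 65.8, 42.9, 34.3 and 34.8 in WT. Every Gsdme_KO library lay above every WT library, with KO7 and KO8 just above WT3. The log2 fold change was 1.28 (SE 0.38) with all libraries and 0.64 without KO4 and KO5. Cd3g (ENSMUSG00000002033, chromosome 9, 44969572 to 44980431, minus strand) encodes the CD3 gamma chain. It had 215, 152, 77.97 and 80.3 in Gsdme_KO, against 78.3, 60.7, 49.8 and 45.5 in WT, so that KO7 lay just below WT3 and the genotypes overlapped. Cd3g had a log2 fold change of 1.05 (SE 0.349; 0.46 in KO7 and KO8 alone). Cd3e, the CD3 epsilon chain on the same stretch of chromosome 9, had 183, 136, 85.3 and 78.5 in Gsdme_KO, against 89.6, 51.2, 54.2 and 52.1 in WT. WT3 was the highest WT library for it and exceeded KO7 and KO8, and the log2 fold change was 0.91 (SE 0.31; 0.44 in KO7 and KO8 alone). Cd3d, the CD3 delta chain next to Cd3g, had 122, 61.6, 25.6 and 21.9 in Gsdme_KO, against 49.9, 27.4, 25.4 and 30.6 in WT, so KO7 was about level with WT7 and KO8 was the lowest library, and its log2 fold change was 0.49 with all libraries and -0.43 without KO4 and KO5.

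The zeta chain gene Cd247 was low outside KO4 and KO5. It had 93.1, 56.3, 15.8 and 19.2 in Gsdme_KO, against 14.8, 8.34, 11.1 and 14.9 in WT, from 13 to 101 recovered reads in Gsdme_KO and 7 to 18 in WT, and its log2 fold change was 1.51 (SE 0.552; 0.51 in KO7 and KO8 alone). Of the beta chain constant genes, Trbc1 had 131, 93.9, 40.2 and 31.03 in Gsdme_KO, against 32.9, 15.5, 28.8 and 26.5 in WT. Trbc2 had 194, 161, 47.5 and 60.2 in Gsdme_KO, against 55.6, 52.4, 44.3 and 48.01 in WT, and the log2 fold changes were 1.29 (SE 0.47; 0.48 in KO7 and KO8 alone) for Trbc1 and 0.95 (SE 0.438; 0.10 in KO7 and KO8 alone) for Trbc2. Their longest annotated transcripts were 91.5% identical over 612 aligned bases, so the split of reads between the pair is uncertain. The gamma and delta chains had smaller fold changes. Trdc (ENSMUSG00000104876, chromosome 14, 54142851 to 54148868, plus strand), the delta chain constant gene, had 71.9, 53.3, 28.02 and 58.4 in Gsdme_KO, against 35.2, 29.8, 43.1 and 31.5 in WT, with KO7 the lowest of the 8 libraries and a log2 fold change of 0.52 (SE 0.298; 0.22 in KO7 and KO8 alone). Trgc1, a gamma chain constant gene, had 65.4, 60.8, 49.95 and 58.4 in Gsdme_KO, against 48.8, 32.2, 37.6 and 40.6 in WT, which left all Gsdme_KO libraries above all WT libraries by a narrow margin, that of KO7 over WT3. For Trgc1 the log2 fold change was 0.56 (SE 0.19), and 0.45 without KO4 and KO5. Sequence that Trgc1 shares with other gamma chain constant genes was not measured, so its reads may be uncertain too.

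The coreceptors had log2 fold changes of 0.37 (SE 0.41) for Cd4, 0.81 (SE 0.375; 0.18 in KO7 and KO8 alone) for Cd8a and 1.32 (SE 0.616; 0.40 in KO7 and KO8 alone) for Cd8b1. Cd4 (ENSMUSG00000023274, chromosome 6, 124864692 to 124888221, minus strand) encodes the helper T cell coreceptor, which some macrophages and innate lymphoid cells also carry. It had 199, 242, 64.6 and 97.7 in Gsdme_KO, against 83.97, 131, 79.7 and 123 in WT. KO7 was the lowest of all 8 libraries and KO8 lay between the WT libraries, and its log2 fold change (limma adjusted p = 0.875 with all libraries) was -0.36 without KO4 and KO5. Cd8a (ENSMUSG00000053977, chromosome 6, 71373427 to 71379173, plus strand) encodes the CD8 alpha chain, which intraepithelial lymphocytes often carry as a homodimer. It had 266, 185, 90.2 and 94.01 in Gsdme_KO, against 117, 58.4, 74.1 and 85.3 in WT, with WT3 above KO7 and KO8. Cd8b1, the beta chain that pairs with it on conventional cytotoxic T cells, had 63.6, 63.8, 31.7 and 9.13 in Gsdme_KO, against 21.6, 7.15, 15.5 and 10.8 in WT. KO7 lay above all WT libraries and KO8, with 10 reads, among them.

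Among the kinases and the adaptor next to the receptor, Lck and Lat separated the genotypes. Lck (ENSMUSG00000000409, chromosome 4, 129548344 to 129573641, minus strand) encodes the kinase bound to CD4 and CD8 that phosphorylates the CD3 and zeta chains. It had 382, 225, 86.5 and 88.5 in Gsdme_KO, against 48.8, 72.6, 56.4 and 57.9 in WT, with each Gsdme_KO library above the highest WT library. For Lck the log2 fold change was 1.44 (SE 0.459), and 0.58 without KO4 and KO5. Lat (ENSMUSG00000030742, chromosome 7, 126363824 to 126369570, minus strand) encodes the membrane adaptor on which signalling complexes assemble. It had 147, 104, 59.7 and 51.1 in Gsdme_KO, against 32.9, 36.9, 44.3 and 38.1 in WT, again with no overlap, and its log2 fold change was 1.11 (SE 0.33) with all libraries and 0.53 without KO4 and KO5. Zap70, the kinase that binds the phosphorylated zeta chain, had 104, 80.4, 32.9 and 27.4 in Gsdme_KO, against 27.2, 14.3, 33.2 and 32.3 in WT, so KO7 and KO8 lay among the WT libraries and its log2 fold change was 1.02 (SE 0.473; 0.23 in KO7 and KO8 alone).

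**Figure D3:**
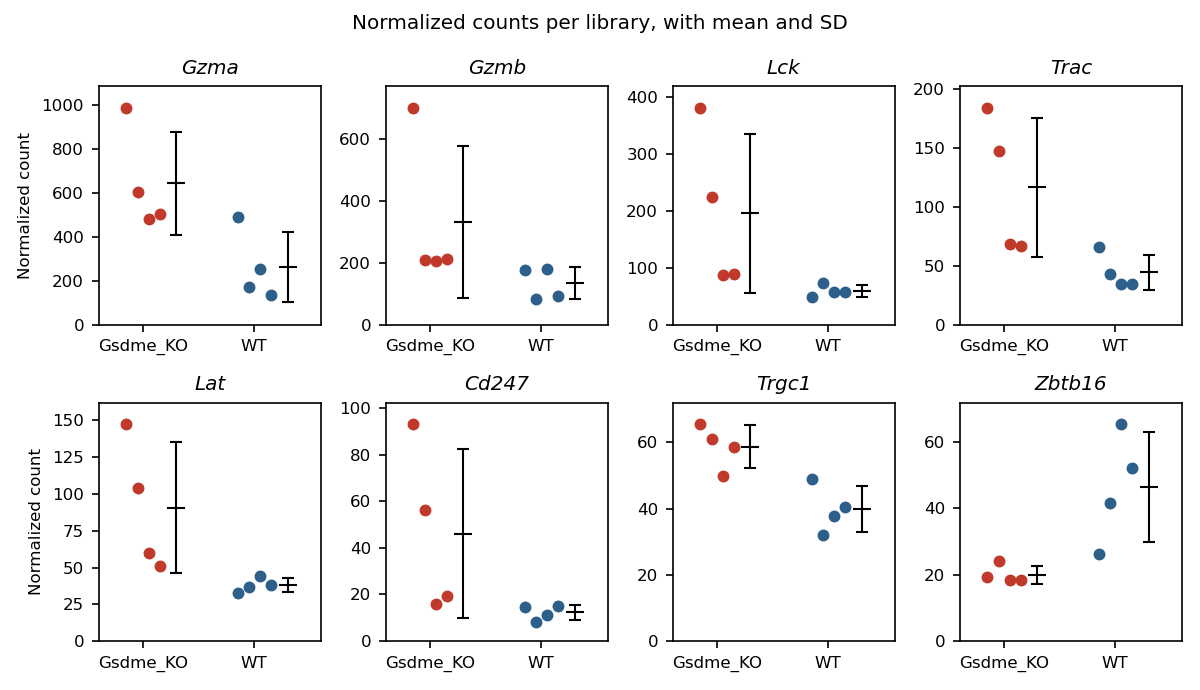
Normalized counts of Gzma and of the 7 genes whose genotypes did not overlap, where points are libraries, in the order KO4, KO5, KO7 and KO8 for Gsdme_KO and WT3, WT5, WT7 and WT8 for WT, and the bar gives the mean and SD (n = 4). KO4 is the highest point for Gzma, Gzmb, Lck, Trac, Lat, Cd247 and Trgc1, and for Zbtb16 the 4 Gsdme_KO libraries lie between 18.3 and 24.03, below the 26.1 of WT3.

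Accessory and costimulatory receptors had a median log2 fold change of 1.66 over 8 genes, all positive, but of 0.38 in KO7 and KO8 alone, with 5 of 6 positive. Of the 8, Cd27 and Ctla4 passed the filter only through KO4 and KO5, so the filter favoured their positive sign. On the log2 scale the group mean exceeded its WT mean by 2.76 and 2.26 in KO4 and KO5, and by 0.36 and 0.39 in KO7 and KO8. Cd7 (ENSMUSG00000025163, chromosome 11, 121036747 to 121039418, minus strand), an immunoglobulin-family receptor abundant on intraepithelial lymphocytes, had 103, 93.9, 59.7 and 80.3 in Gsdme_KO, against 55.6, 60.7, 44.3 and 49.7 in WT. KO7 lay below WT5, so the genotypes overlapped, and its log2 fold change was 0.65 (SE 0.209; 0.40 in KO7 and KO8 alone). Cd2 (ENSMUSG00000027863, chromosome 3, 101275899 to 101287939, minus strand), an adhesion receptor of lymphocytes, had 183, 118, 28.02 and 19.2 in Gsdme_KO, against 10.2, 11.9, 25.4 and 9.93 in WT. KO4 and KO5 were far above the other 6 libraries, KO7 and WT7 were close, and the log2 fold change was 2.06 (SE 0.708; 0.76 in KO7 and KO8 alone). Cd5 and Cd6, scavenger-family receptors that dampen receptor signals, had log2 fold changes of 1.66 (SE 0.877; 0.16 in KO7 and KO8 alone) and 1.91 (SE 0.659; 0.84 in KO7 and KO8 alone) and rested on 2 to 15 and 5 to 16 reads per WT library. Cd27, a TNF receptor family member that some B cells also carry, had 59.9, 44.3, 10.96 and 8.21 in Gsdme_KO, against 11.3, 2.38, 4.43 and 5.79 in WT.

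The costimulatory and inhibitory receptors counted here with the helper and regulatory genes were high in KO4 and KO5 alone. Cd28, the main costimulatory receptor, had 75.6, 61.6, 21.9 and 27.4 in Gsdme_KO, against 11.3, 15.5, 18.8 and 38.1 in WT, with a log2 fold change of 1.08 (SE 0.49; 0.36 in KO7 and KO8 alone). Icos, which helper T cells of follicles carry in abundance, had 69.1, 49.6, 9.75 and 10.04 in Gsdme_KO, against 12.5, 16.7, 14.4 and 18.2 in WT. For Icos, KO7 and KO8 were the lowest of the 8 libraries, and its log2 fold change was 0.64 with all libraries and -0.58 without KO4 and KO5. Ctla4, an inhibitory receptor of activated and regulatory T cells, had 74.7, 25.5, 6.09 and 6.39 in Gsdme_KO, against 6.81, 3.57, 2.21 and 8.28 in WT, from 2 to 10 reads in the 6 libraries other than KO4 and KO5.

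Granzyme A and granzyme B, serine proteases of cytotoxic granules, were the most abundant T cell genes. Neither passed the test (limma adjusted p = 0.849 for both with all libraries and 0.999 in KO7 and KO8 alone). Gzma (ENSMUSG00000023132, chromosome 13, 113093825 to 113100981, minus strand) had 989, 603, 481 and 503 in Gsdme_KO, against 490.2, 170.3, 252 and 134 in WT. WT3 lay between KO7 and KO8, and the other 3 WT libraries lay far below all Gsdme_KO libraries. The log2 fold change was 1.41 (SE 0.397) with all libraries and 1.09 without KO4 and KO5. Gzmb (ENSMUSG00000015437, chromosome 14, 56258838 to 56262260, minus strand) had 701, 209, 205 and 213 in Gsdme_KO, against 176, 83.4, 179 and 92.7 in WT. All Gsdme_KO libraries were above all WT libraries, KO4 stood far above the other 3, and KO7 at 204.7 was close to WT7 at 179.2. The log2 fold change was 1.17 (SE 0.444) with all libraries, 0.73 without KO4 and KO5. Per kilobase of exon, Gzma had 640.2 in Gsdme_KO and 260.1 in WT and Gzmb 231 in Gsdme_KO and 92.5 in WT, both above Trac, which had 125 in Gsdme_KO and 47.5 in WT. Gzmb shares sequence with its neighbour Gzmc (80% identity over 828 aligned bases of transcript), so a few of its reads may be uncertain.

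The other granule genes were low. Gzmk, a granzyme of memory-like T cells, had 26.7, 8.26, 30.5 and 17.3 in Gsdme_KO, against 19.3, 2.38, 11.1 and 12.4 in WT, with KO7 highest and KO5 and KO8 within the WT range, and a log2 fold change of 0.93 (SE 0.611; 1.23 in KO7 and KO8 alone). Prf1, the pore-forming perforin, had 58.99, 15.8, 1.22 and 7.3 in Gsdme_KO, against 14.8, 9.53, 12.2 and 10.8 in WT, with KO4 the highest and KO7, at 1 read, the lowest of the 8 libraries. The log2 fold change of -0.12 (SE 0.863) changed sign between fits. Nkg7, a granule membrane protein of NK and cytotoxic T cells, had 106, 76.6, 42.6 and 35.6 in Gsdme_KO, against 36.3, 33.3, 28.8 and 38.9 in WT and a log2 fold change of 0.78 (SE 0.342; 0.19 in KO7 and KO8 alone). KO7 and KO8 lay close to the WT libraries. Relative to the WT mean, the mean log2 level of the 5 granule genes was 1.97, 0.70, 0.24 and 0.43 in Gsdme_KO, and between -0.58 (WT5) and 0.59 (WT3) in WT.

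Promoter windows are shown for Gzma, the most abundant of the T cell genes, and for 4 genes whose Gsdme_KO libraries all lay above WT. RefSeq sequences (GRCm38.p6) were found for 23 of the 40 genes, with 28 start sites, and each line gives the 250 bases before the start, 5′ to 3′. Capitals mark TGTGGT, a core bound by RUNX factors, and AGGAAG, a core bound by ETS factors, on either strand.

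Gzma (chr13:113100982-113101231, minus strand): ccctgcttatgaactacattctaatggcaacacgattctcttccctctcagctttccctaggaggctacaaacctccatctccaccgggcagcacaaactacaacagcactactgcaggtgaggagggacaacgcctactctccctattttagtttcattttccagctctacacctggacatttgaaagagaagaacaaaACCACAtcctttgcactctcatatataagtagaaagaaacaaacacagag
Gzmb (chr14:56262335-56262584, minus strand): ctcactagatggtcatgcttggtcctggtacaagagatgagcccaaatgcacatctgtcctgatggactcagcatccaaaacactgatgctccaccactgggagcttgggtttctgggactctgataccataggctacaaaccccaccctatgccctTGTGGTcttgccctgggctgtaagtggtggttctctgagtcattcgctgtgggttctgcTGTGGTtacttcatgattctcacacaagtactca
Lck (chr4:129573642-129573891, minus strand): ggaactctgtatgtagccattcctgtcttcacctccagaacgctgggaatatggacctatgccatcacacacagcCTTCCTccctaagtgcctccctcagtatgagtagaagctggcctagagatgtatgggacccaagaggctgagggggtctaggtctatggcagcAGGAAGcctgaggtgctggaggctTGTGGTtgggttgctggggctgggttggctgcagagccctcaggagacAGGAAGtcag
Lat (chr7:126369569-126369818, minus strand): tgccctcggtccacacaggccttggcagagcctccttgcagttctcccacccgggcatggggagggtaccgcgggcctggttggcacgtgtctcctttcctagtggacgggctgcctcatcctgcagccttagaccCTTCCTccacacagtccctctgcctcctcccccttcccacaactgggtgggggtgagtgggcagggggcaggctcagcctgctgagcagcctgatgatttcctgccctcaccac
Cd247 (chr1:165788431-165788680, plus strand): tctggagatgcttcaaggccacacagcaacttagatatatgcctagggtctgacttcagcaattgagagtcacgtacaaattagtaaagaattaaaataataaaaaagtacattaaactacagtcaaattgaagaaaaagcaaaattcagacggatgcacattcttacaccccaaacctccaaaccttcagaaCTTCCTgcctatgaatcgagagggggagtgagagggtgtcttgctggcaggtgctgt

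TGTGGT occurred once in the Gzma window and the Lck window and at 2 places in that of Gzmb. A second Lck start held no TGTGGT and 1 AGGAAG. In the windows shown, AGGAAG occurred at 3 places in the Lck window and at 1 each in those of Lat and Cd247. Over all member windows, 9 of 28 held TGTGGT (32.1%), against 14% of 32851 RefSeq windows of the same length, and 16 of 28 held AGGAAG (57.1%), against 29.5%. The T-box core GGTGTGA was found in 3 of 28 (10.7%, against 3.33%), the E-box CAGCTG in 3 (10.7%, against 13%) and the CRE element TGACGTCA in 1 (3.57%, against 1.55%), each on both strands. These matches are letters in a window and say nothing of binding.

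NK receptors had a median log2 fold change of 0.32 over 4 genes, all positive. Klrd1 (ENSMUSG00000030165, chromosome 6, 129591782 to 129598775, plus strand) encodes CD94, which pairs with NKG2 chains on NK cells and cytotoxic T cells. It had 107, 43.6, 37.8 and 49.3 in Gsdme_KO, against 35.2, 20.2, 16.6 and 38.1 in WT. KO4 stood far above the other Gsdme_KO libraries and WT8 lay above KO7, and the log2 fold change was 1.04 (SE 0.394; 0.71 in KO7 and KO8 alone). Cd244a (ENSMUSG00000004709, chromosome 1, 171559193 to 171609746, plus strand), a SLAM-family receptor of NK cells and some intraepithelial lymphocytes, had 92.2, 112, 76.8 and 72.1 in Gsdme_KO, against 44.3, 72.6, 71.9 and 65.4 in WT. KO8 lay just below WT5, and the log2 fold change was 0.47 (SE 0.22; 0.25 in KO7 and KO8 alone). Klrk1, the NKG2D receptor for stress-induced ligands, had 94.02, 30.8, 4.87 and 18.3 in Gsdme_KO, against 10.2, 27.4, 28.8 and 31.5 in WT, with KO4 highest and KO7, at 4 reads, lowest of all. Klrk1 had a log2 fold change of 0.04 with all libraries and -1.15 without KO4 and KO5. Cd160, a receptor of intestinal intraepithelial lymphocytes, had 38.7, 29.3, 34.1 and 20.1 in Gsdme_KO, against 28.4, 26.2, 16.6 and 39.7 in WT, with no Gsdme_KO library above all WT libraries and a log2 fold change of 0.16 (SE 0.317; -0.02 in KO7 and KO8 alone). Of the 7 NK cell and innate lymphoid markers, which include Gata3, itself a T cell gene of the set, 4 were tested and 3 were positive. Their median log2 fold change was 0.22, and in KO7 and KO8 alone -0.06, with 1 of 3 positive. The mean levels of these markers stood at 1.25, 0.64, -0.02 and 0.06 from the WT mean in Gsdme_KO. Their part in these values was not tested. Ncr1, which encodes the NK receptor NKp46, had 22.1, 9.76, 6.09 and 4.56 in Gsdme_KO, against 4.54, 11.9, 3.32 and 7.45 in WT, and it missed the filter.

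Il2rb (ENSMUSG00000068227, chromosome 15, 78479256 to 78495271, minus strand) encodes the beta chain shared by the receptors of IL-2 and IL-15. It had 230.4, 107, 51.2 and 67.5 in Gsdme_KO, against 39.7, 29.8, 44.3 and 58.8 in WT. KO7 lay within the WT range, and the log2 fold change was 1.18 (SE 0.443; 0.48 in KO7 and KO8 alone). Itgae (ENSMUSG00000005947, chromosome 11, 73090583 to 73147446, plus strand) encodes the integrin alpha chain that holds intraepithelial lymphocytes to E-cadherin. It had 140.1, 125, 68.2 and 101 in Gsdme_KO, against 71.5, 63.1, 78.5 and 94.4 in WT. KO7 lay within the WT range and KO8 just above WT8, and the log2 fold change was 0.46 (SE 0.243), 0.13 without KO4 and KO5. Cd69, an early activation and tissue-residence marker that activated B cells carry as well, had 143, 96.9, 13.4 and 12.8 in Gsdme_KO, against 14.8, 17.9, 13.3 and 13.2 in WT, so only KO4 and KO5 of the Gsdme_KO libraries were clearly above WT and KO8 was the lowest of all 8. Cd69 had a log2 fold change of 1.38 (SE 0.768; -0.15 in KO7 and KO8 alone).

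Of the lineage factors, Zbtb16 alone had a lower mean log2 level in Gsdme_KO. Zbtb16 (ENSMUSG00000066687, chromosome 9, 48654297 to 48836222, minus strand) encodes PLZF, a transcription factor of innate-like T cells and of innate lymphoid precursors. It had 19.4, 24.03, 18.3 and 18.3 in Gsdme_KO, against 26.1, 41.7, 65.3 and 52.1 in WT. All Gsdme_KO libraries lay below all WT libraries, also KO4 and KO5, in which most other T cell genes were highest. Which cells of the ileum held the Zbtb16 RNA was not tested. The log2 fold change of Zbtb16 was -1.11 (SE 0.296, limma unadjusted p = 0.00484 and adjusted p = 0.849), and -1.22 without KO4 and KO5. Gata3 (ENSMUSG00000015619, chromosome 2, 9857078 to 9890034, minus strand), the factor of type 2 helper cells and of innate lymphoid cells, had 42.4, 55.6, 35.3 and 29.2 in Gsdme_KO, against 32.9, 32.2, 37.6 and 24.8 in WT, with overlap and a log2 fold change of 0.32 (SE 0.249; 0.03 in KO7 and KO8 alone). Foxp3, the factor of regulatory T cells, had 21.2, 16.5, 3.65 and 7.3 in Gsdme_KO, against 4.54, 1.19, 3.32 and 5.79 in WT. It rested on 3 to 23 reads in Gsdme_KO and 1 to 7 in WT, and was below the filter. Eomes, a factor of cytotoxic and NK cells, was also below the filter, with 18.4, 19.5, 6.09 and 1.83 in Gsdme_KO, against 4.54, 5.95, 7.74 and 4.97 in WT. Tbx21, which encodes T-bet, the factor of type 1 helper and cytotoxic cells, had 25.8, 16.5, 14.6 and 13.7 in Gsdme_KO, against 24.96, 13.1, 12.2 and 9.1 in WT, so WT3 was close to KO4 and the log2 fold change was 0.29 (SE 0.36; 0.03 in KO7 and KO8 alone).

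Cytotoxic genes were set against helper genes within each library. The 13 cytotoxic genes (Cd8a, Cd8b1, Gzma, Gzmb, Gzmk, Prf1, Nkg7, Klrd1, Klrk1, Cd160, Cd244a, Tbx21 and Eomes) had mean log2 levels that exceeded their WT mean by 1.64, 0.84, 0.15 and 0.09 in the Gsdme_KO libraries. The 6 genes counted as helper and regulatory (Cd4, Cd28, Icos, Ctla4, Gata3 and Foxp3), not all confined to such cells, stood at 1.92, 1.59, -0.08 and 0.18 in the same libraries. The cytotoxic mean minus the helper mean was 0.52, 0.05, 1.02 and 0.70 in Gsdme_KO, against 1.14, 0.67, 0.99 and 0.38 in WT. This came to 0.57 ± 0.41 in Gsdme_KO and 0.80 ± 0.34 in WT (SD, n = 4 each), a difference of -0.23 that was smaller than the spread within either genotype and turned to 0.07 without KO4 and KO5. KO4 exceeded all WT libraries in 12 of the 13 cytotoxic and 6 of the 6 helper genes, and KO5 in 9 and 6. For KO7 the counts were 5 and 0, and for KO8 they were 3 and 1. The background over all tested genes was 30.5% (KO4), 24.3% (KO5), 18.3% (KO7) and 14.2% (KO8). Eomes and Foxp3, which missed the filter, are in the counts but not in that background. With 13 and 6 genes, the counts are too small to set the groups apart.

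**Figure D4:**
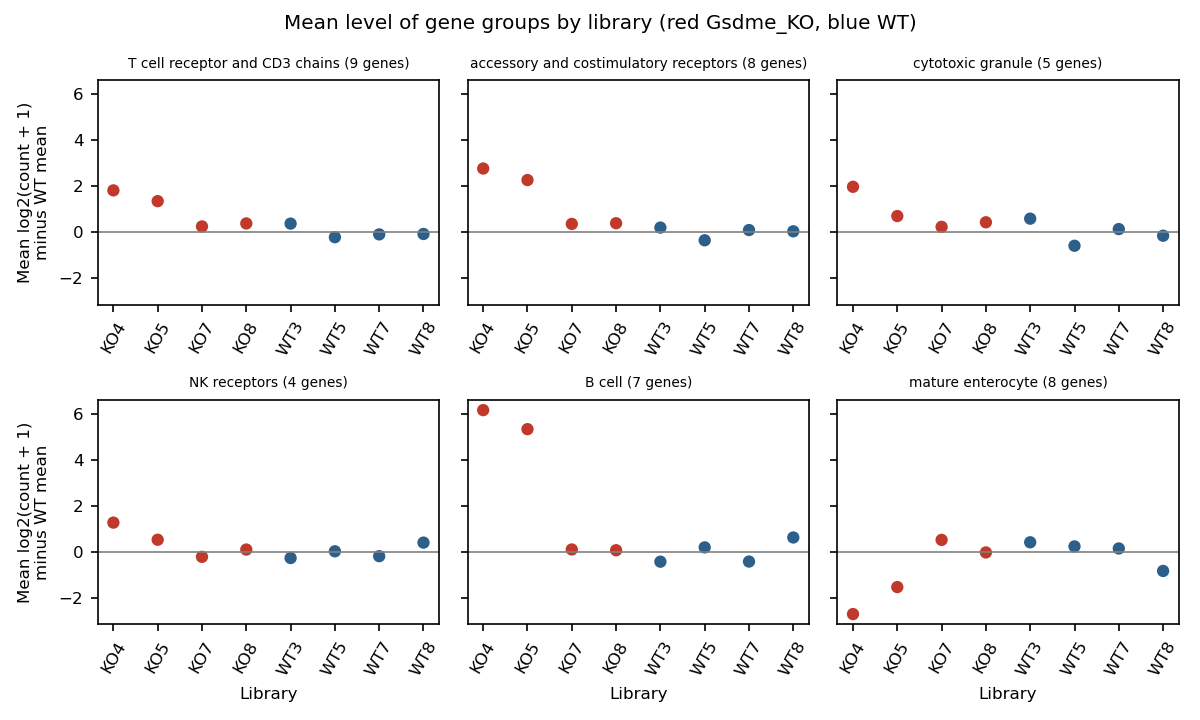
Mean log2(normalized count + 1) over 4 groups of T cell genes and over the B cell and mature enterocyte markers, minus the WT mean, in the 4 Gsdme_KO (red) and 4 WT libraries (blue). KO4 and KO5 stand at 6.15 and 5.32 for B cell markers and at -2.69 and -1.52 for mature enterocyte markers, while for the T cell receptor and CD3 chains KO7 and KO8 stand at 0.25 and 0.38, and WT3 at 0.38.

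Ratios of single gene pairs were computed as log2 of (normalized count + 1), and tested by exact permutation, two-sided, over the 70 assignments of libraries, with p adjusted over the 6 ratios. The smallest p is 0.0286, so a ratio that stands alone cannot pass after adjustment (0.171). The log2 Cd8a/Cd4 ratio was 0.42, -0.38, 0.48 and -0.05 in Gsdme_KO, against 0.47, -1.15, -0.10 and -0.53 in WT. It averaged 0.11 ± 0.41 in Gsdme_KO and -0.33 ± 0.69 in WT (SD, n = 4 each), and the difference of 0.44 (exact permutation p = 0.286, adjusted p = 0.343) was within the spread of WT. It was 0.17 without WT5. The log2 Gzmb/Cd4 ratio was 1.81, -0.21, 1.65 and 1.11 in Gsdme_KO, against 1.06, -0.65, 1.16 and -0.41 in WT. KO5, where Gzmb was like KO7 and KO8 but Cd4 was highest, lay among the WT libraries, and the difference was 0.80 (exact permutation p = 0.2, adjusted p = 0.3).

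Granzyme genes per T cell receptor complex gave overlapping genotypes. The log2 Gzma/Cd3e ratio was 2.42, 2.14, 2.48 and 2.66 in Gsdme_KO, against 2.44, 1.71, 2.20 and 1.35 in WT. WT3 and WT7 lay within the Gsdme_KO range, and the difference was 0.50 (exact permutation p = 0.171, adjusted p = 0.3). The log2 Gzmb/Cd3e ratio was 1.93, 0.62, 1.25 and 1.43 in Gsdme_KO, against 0.96, 0.69, 1.71 and 0.82 in WT. It differed by 0.26 (exact permutation p = 0.457, adjusted p = 0.457), with KO5 the lowest and KO4 the highest of the 8 libraries, and by 0.05 without KO4. The log2 Trdc/Trac ratio was -1.35, -1.45, -1.25 and -0.19 in Gsdme_KO, against -0.89, -0.51, 0.32 and -0.14 in WT. KO4, KO5 and KO7 lay below all WT libraries and KO8 among them, with a difference of -0.76 (exact permutation p = 0.0857, adjusted p = 0.257), and Trac was the member of the pair that differed more. The log2 Foxp3/Cd4 ratio was -3.17, -3.79, -3.82 and -3.57 in Gsdme_KO, against -3.94, -5.91, -4.22 and -4.19 in WT. All Gsdme_KO libraries lay above all WT libraries, a difference of 0.98 (exact permutation p = 0.0286, adjusted p = 0.171), which was 0.53 without WT5, but with 1 to 8 Foxp3 reads in KO7, KO8 and the WT libraries the ratio is imprecise. In KO7 and KO8 alone the differences were 0.54 for Cd8a/Cd4, 1.09 for Gzmb/Cd4, 0.65 for Gzma/Cd3e, 0.29 for Gzmb/Cd3e, -0.42 for Trdc/Trac and 0.87 for Foxp3/Cd4.

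**Figure D5:**
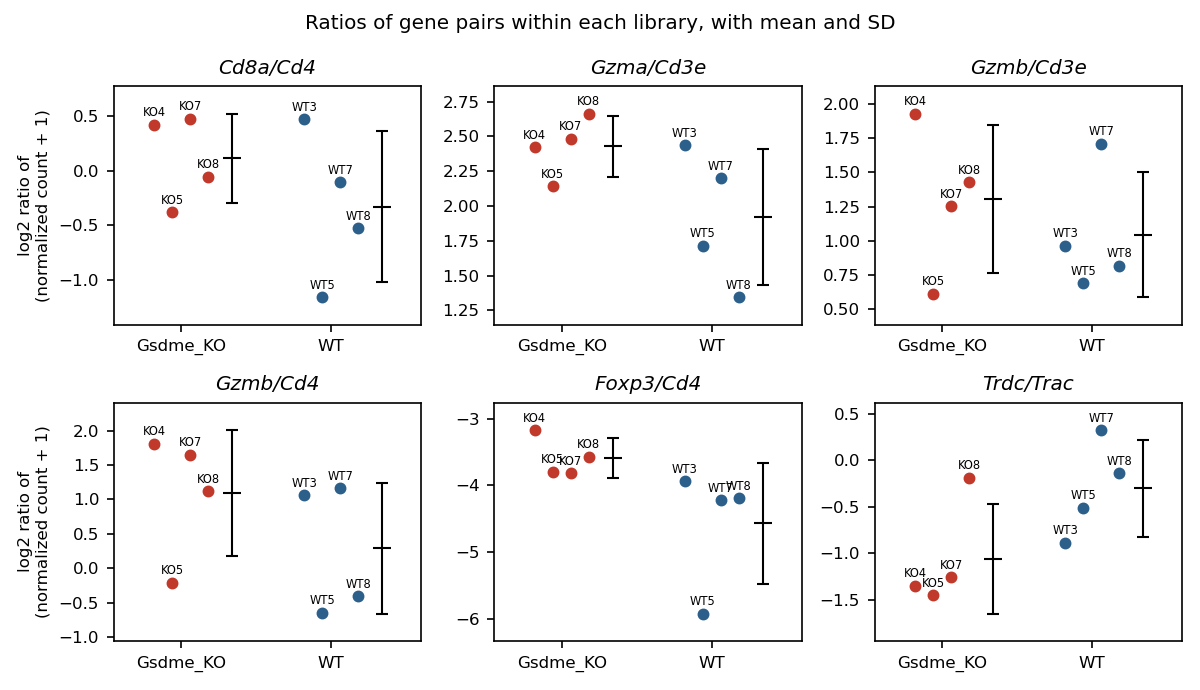
Log2 ratios of 6 gene pairs within each library, on the scale of normalized count + 1, for Gsdme_KO (red) and WT (blue), where points are named libraries and the bar gives the mean and SD (n = 4). The genotypes overlap for 5 ratios, and for Foxp3/Cd4 the lowest Gsdme_KO library (-3.82) lies above the highest WT library (-3.94).

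Other genes of the T cell pathway had mostly positive fold changes with all libraries, and a share of positive ones near that of all genes without KO4 and KO5. Of 134 further genes in 6 lists, 115 were tested, 101 had a positive log2 fold change (87.8%, against 50.6% of all tested genes) and 14 a negative one, and the median was 0.63. Limma called 0 in each direction, where 0.00612% of all genes were called higher and 0% lower. At an unadjusted p under 0.05 limma listed 23 higher and 0 lower, against 2.61% and 1.77% of all tested genes. Without KO4 and KO5 the median was 0.01, with 54 of 102 positive (52.9%, against 52% of all genes in that fit). Some of the 115 therefore passed the filter only with KO4 and KO5 included, which favours a positive sign. T cell receptor signalling genes had 25 of 26 positive, with a median of 0.93, and 12 of 23 in KO7 and KO8 alone, with a median of 0.07. In that list Ptprc, the leukocyte phosphatase CD45, had 3305, 1899, 571 and 571 in Gsdme_KO, against 509, 548, 469 and 652 in WT, and Plcg1, a phospholipase that epithelium expresses too, had 619 ± 70.04 normalized counts in Gsdme_KO and 523 ± 53.6 in WT (SD, n = 4 each). T cell transcription factors had 13 of 17 positive (median 0.45), and 7 of 16 in KO7 and KO8 alone (median -0.01). Id3, an inhibitor of E proteins, had 1755 ± 125 normalized counts in Gsdme_KO and 1686 ± 272 in WT (SD, n = 4 each), and Ets1 had 1672, 1265, 463 and 462 in Gsdme_KO, against 398, 414, 339 and 537 in WT.

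Effector cytokines and death ligands had 12 of 13 tested genes positive (median 0.77), but 2 of 9 in KO7 and KO8 alone (median -0.19). The 20 genes of the list summed to 4095, 1934, 1154 and 1155 in Gsdme_KO, against 1059 to 1372 in WT. Srgn, the granule proteoglycan that myeloid cells share, had 711 ± 549.9 normalized counts in Gsdme_KO and 329 ± 54.6 in WT, and Tnfsf10, the death ligand TRAIL, 402 ± 250.1 normalized counts in Gsdme_KO and 366 ± 92.5 in WT (SD, n = 4 each). Homing and cytokine receptors had 22 of 22 positive (median 0.80), but 8 of 18 in KO7 and KO8 alone (median -0.02). The 22 genes summed to 7562, 5583, 2381 and 2527 in Gsdme_KO, against 2154 to 2938 in WT. They were led in level by Itga1, a collagen-binding integrin chain, with 1368 ± 225 normalized counts in Gsdme_KO and 1210 ± 151 in WT, and Gpr55, a lipid receptor, with 367 ± 219 normalized counts in Gsdme_KO and 232 ± 58.5 in WT (SD, n = 4 each). Inhibitory and activation receptors had 17 of 17 positive (median 0.70), and 12 of 16 in KO7 and KO8 alone (median 0.25). Of these, Jaml, a costimulatory receptor of epithelial gamma-delta T cells, had 436 ± 48.9 normalized counts in Gsdme_KO and 427 ± 61.9 in WT and Fcer1g, a signalling chain of NK and myeloid cells, 416 ± 152 normalized counts in Gsdme_KO and 283 ± 26.9 in WT (SD, n = 4 each). Over all 134 further genes, 10 had every Gsdme_KO library above every WT library and 0 had every one below. Of all tested genes, 1.31% and 1.19% did so. The next 2 genes were chosen after their values were seen. Ccl5, a chemokine stored in cytotoxic granule-bearing lymphocytes, had 242, 139, 122 and 129 in Gsdme_KO, against 98.7, 45.3, 71.9 and 66.2 in WT, with no overlap and a log2 fold change of 1.15 (SE 0.29; 0.87 in KO7 and KO8 alone). Ccr9, the receptor that brings T cells to the small intestine, had 96.8, 74.3, 59.7 and 55.7 in Gsdme_KO, against 31.8, 36.9, 44.3 and 45.5 in WT, also with no overlap and a log2 fold change of 0.82 (SE 0.227; 0.54 in KO7 and KO8 alone). The limma adjusted p was 0.849 for both.

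The ligands and partners of these receptors had 12 of 20 tested genes positive, with a median of 0.21, and 13 of 20 in KO7 and KO8 alone, with a median of 0.07. H2-D1 and H2-K1, class I molecules seen by CD8 T cells, had 31618 ± 8279 normalized counts in Gsdme_KO and 24992 ± 3274 in WT, and 31239 ± 6349 normalized counts in Gsdme_KO and 25101 ± 3955 in WT (SD, n = 4 each). Cdh1, the E-cadherin partner of Itgae, had 17968 ± 945 normalized counts in Gsdme_KO and 18087 ± 1347 in WT (SD, n = 4 each). The next genes were chosen after their values were seen. Ccl25, the epithelial ligand of Ccr9, had 1339, 2558, 7439 and 5782 in Gsdme_KO, against 7818, 6994, 5521 and 4530 in WT, and Btnl1, a butyrophilin-like gene needed by intestinal gamma-delta T cells, had 1629, 2305, 5525 and 4030 in Gsdme_KO, against 5733, 5594, 4611 and 3373 in WT. Both were lowest in KO4 and KO5, where summed mature enterocyte markers were also lowest, 98756 and 133363, against 298977 to 399186 in KO7 and KO8 and 216260 to 407741 in WT. In KO7 and KO8 both genes were within the WT range. The part of enterocyte RNA in these values was not tested.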

How the data were processed

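Bulk poly(A) RNA-seq of ileum was deposited for 4 Gsdme_KO and 4 WT mice. Per the submitters' processing notes, HISAT2, SAMtools, featureCounts, Subread and DESeq2 were used with genome build GRCm38. The sources used here give no tool version, annotation or strand setting of the counting. Libraries were strand-specific per the labels, and reads of overlapping or antisense genes may be uncertain. The deposited signal is a table of normalized read counts per gene. In all 8 libraries 100% of values were whole multiples of 1 step (tolerance 0.01 reads), and size factors recomputed from these reads ran from 0.821 to 1.33. Columns were assigned by header prefix to a genotype only, because header numbers differ from label numbers. The p-values measure only the spread between these libraries.

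The test was limma-trend (limma 3.58.1, R 4.3.3) on log2(normalized count + 1), for 16352 genes whose mean reached 10, with Benjamini-Hochberg adjustment over all of them. Alternatives were other pseudocounts, filters, scalings and weights, edgeR 4.0.16, DESeq2 1.42.0 and leaving out libraries. Gene positions and exon lengths are from GENCODE M21 (GRCm38). Within each role group, called genes, or else the 2 of smallest p, and both genes of each ratio are given in full; of other lists, the 2 of highest mean. Others were named after their values were seen. The members, lists and tests were chosen with earlier results of these data known. Among symbols of the other pathway lists, 134 matched and 1 (Cd58) did not. Of the cell type markers, 1 is not reported here, and the sums of its list leave it out.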

Additional observations from a re-analysis of the deposited data

Results flagged for a closer look

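Among 98 groups of 4 libraries examined, 6 held a library far from the other 3, and chance marks about 1 in 20 such groups. In Gsdme_KO, Gzmb had 700.5 normalized counts in KO4 against 204.7 to 212.7 in the other 3, and Klrd1 had 106.9 in KO4 against 37.8 to 49.3. In WT, Cd3e had 89.6 in WT3 against 51.2 to 54.2, and Cd2 had 25.4 in WT7 against 9.93 to 11.9. The log2 Foxp3/Cd4 ratio was -5.91 in WT5, where Foxp3 had 1 read, against -4.22 to -3.94 in the other WT libraries. The log2 Trdc/Trac ratio was -0.19 in KO8, against -1.45 to -1.25 in the other Gsdme_KO libraries.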

How the results depend on the processing

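Limma, edgeR and DESeq2 called 0 T cell genes under every alternative run, though DESeq2 gave no adjusted p for 4. The number with a positive log2 fold change lay between 34 and 37 when 1 library was left out, at 31 with array weights, at 28 without KO4 and KO5 and at 15 of 15 with a mean of at least 50, where fewer genes were tested. The median of 0.98 was 0.69 without KO4, 0.86 without KO5, 0.48 with array weights and 0.36 without both. Over all genes DESeq2 called 8 higher and 1 lower, the fit without KO4 and KO5 0 and 1, and fits without 1 library 0 to 1 higher. The sign turned for Cd3d (-0.25 with array weights, -0.43 without KO4 and KO5), Cd4 (-0.36 without both), Icos (-0.044 and -0.58), Cd69 (-0.15 without both), Tbx21 (-0.080 with array weights) and Cd160 (-0.031 and -0.016, and -0.056 to 0.35 with 1 library left out, lowest without WT7). For Klrk1 it was -0.20 with array weights, -0.056 with quantile normalization, -1.15 without KO4 and KO5, -0.32 without WT3, -0.62 without KO4 and -0.09 without KO5, up to 0.72 without KO7. For Prf1 it was 0.10 with a pseudocount of 5, 0.84 by edgeR, 0.83 by DESeq2, 0.68 without KO7 and 0.05 without KO8, down to -0.91 without KO4. Causes were not tested. Gsdme differed by -2.37 without KO4 and KO5 (exact permutation p = 0.0667, the smallest possible there) and by -3.31 in medians (exact permutation p = 0.0571). The 6 ratios kept their direction, but leaving out 1 library gave 0.05 (without KO4) to 0.49 for Gzmb/Cd3e, 0.17 (without WT5) to 0.71 for Cd8a/Cd4 and 0.53 (without WT5) to 1.19 for Foxp3/Cd4, which was 0.51 with a pseudocount of 5. Gzmb/Cd4 ran from 0.49 without WT5 to 1.23 without KO5, and Gzma/Cd3e was 0.31 without WT8. Depth limits genes such as Foxp3, Prf1, Ctla4 and Cd27, with 10 or fewer reads in several libraries. No paired analysis was possible because the replicate numbers of the labels cannot be tied to columns, and nothing in the labels says that mice are paired.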
